A study of Sus scrofa with 4 samples.

Results

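The HOX clusters are 4 runs of homeobox genes, HOXA, HOXB, HOXC and HOXD, and their chromatin was described here in porcine fetal fibroblasts (PFFs). The members were the genes of the RefSeq table of Sscrofa11.1 whose symbol is HOX followed by A, B, C or D and a number. Described here are 35 of 19550 protein-coding gene models, with 10 in HOXA, 8 in HOXB, 9 in HOXC and 8 in HOXD. HOXB4, HOXB9 and HOXD4 were not in the table. The assay was ATAC-seq, which marks open chromatin by letting the transposase Tn5 cut and tag DNA between nucleosomes, and all cells were skin fibroblasts under serum starvation. The 2 control libraries (control 1 and control 4) were labelled wild type and carried the vector pTK-642, and the cells of the 2 BRG1 libraries (BRG1 1 and BRG1 4) carried pTK-642-BRG1 and over-expressed BRG1. BRG1 is the ATPase of the BAF chromatin remodelling complex, and the study asked how its over-expression in nuclear transfer donor cells bears on open chromatin. The labels name neither the promoter that drives BRG1 nor separate cultures within a group, so p-values here reflect the spread between single libraries, which may be technical.

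HOX genes encode transcription factors that tell cells of the embryo where they lie along the body axis. Genes of a cluster are numbered by paralogue group, and low (anterior) numbers act toward the head and high (posterior) numbers toward the tail and the ends of the limbs. Polycomb complexes hold the genes shut where they are not used, Trithorax complexes hold them open, and skin fibroblasts of the adult are known to keep a HOX pattern that reflects the body site they came from.

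The control 1 and control 4 lists held 107475 and 105954 peaks, and those of BRG1 1 and BRG1 4 held 96367 and 90851, with median widths of 403, 396, 404 and 541 bp. The lowest background of a list, which follows its depth, taken relative to that of control 1, was 93.5% (control 4), 81.2% (BRG1 1) and 92.6% (BRG1 4). Absolute depth is unknown, and a missing peak means that none was called at that depth. All 14 fibroblast markers, among them COL1A1, THY1 and TWIST1, had a peak within 1 kb of the gene model in all 4 libraries. Of all protein-coding models, 80.8% had such a peak in all 4 libraries and 14.9% had one in no library. The keratinocyte gene KRT5, the melanocyte genes TYR and DCT and the muscle regulator MYF5 had none in any library, but 4 of 5 epithelial, 4 of 5 endothelial, 5 of 5 immune, 2 of 5 melanocyte and 3 of 5 muscle markers found in the table had a peak in all 4. No marker had a peak in both libraries of 1 group only. Peaks do not measure expression, and the level of BRG1 was not checked from them. In bulk cells, fewer cells with an open site and a less open site in every cell cannot be told apart.

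Most HOX genes lay in open chromatin in both groups. A peak within 1 kb of the gene model was called in all 4 libraries at 28 of 35 members (80%), against 80.8% of all protein-coding models. These shares rest on unlike search lengths, since the median model length was 4112 bp for members and 20650.5 bp for all models. The controls had 30 (control 1) and 31 (control 4) members with such a peak, and the BRG1 libraries 30 (BRG1 1) and 29 (BRG1 4). The BRG1 mean was 29.5 ± 0.707 and the control mean 30.5 ± 0.707 (SD, n = 2, two-sided exact permutation p = 0.667), and the groups overlapped. With 2 libraries against 2 the smallest p this test allows is 0.333, so no difference could pass 0.05 by it. The difference of −1 member turned to 0.5 when every list was shortened to its 90851 top peaks. No member had a peak in both BRG1 libraries and neither control (0.0767% of all models did), and none in both controls and neither BRG1 library (0.512% of all models). The 7 members without a peak in all 4 libraries are described first, because they mark the parts of the clusters where calls were missing.

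**Figure D1:**
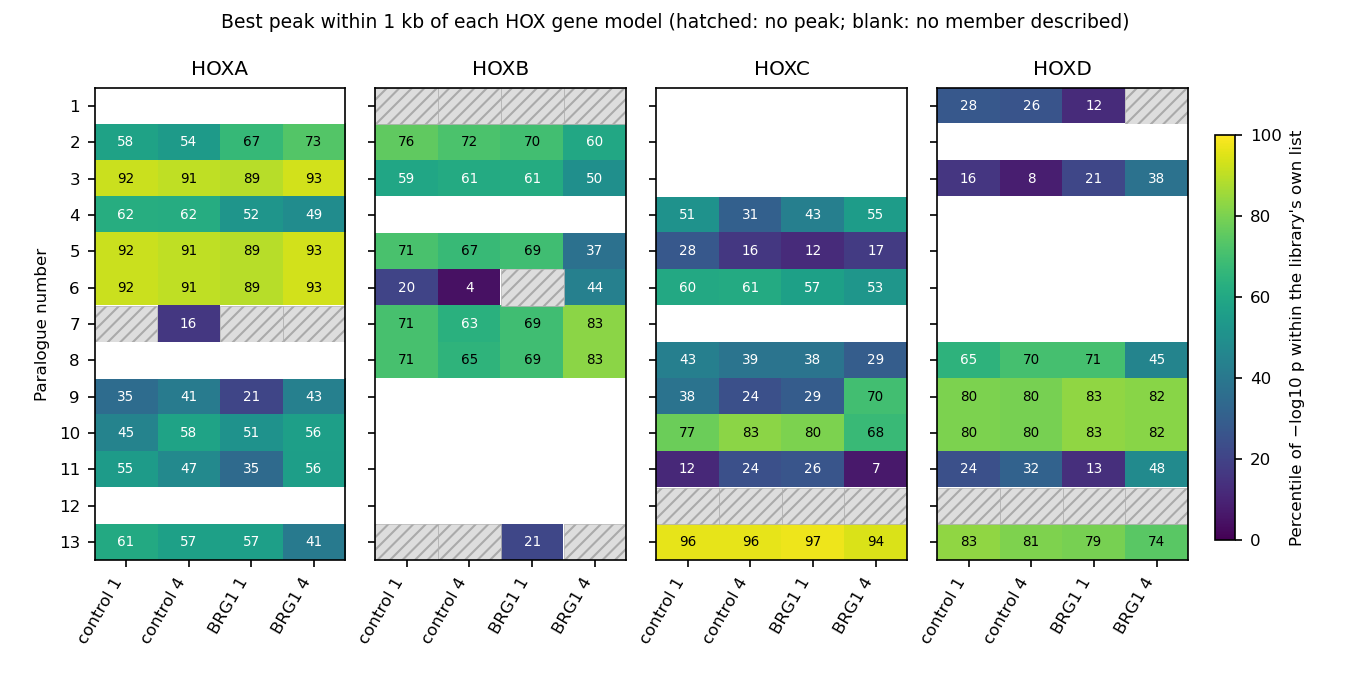
Each cell gives the percentile of the strongest peak within 1 kb of a HOX gene model, as the percent of peaks of the same list with a lower −log10 p, for 4 libraries (columns), 13 paralogue numbers (rows) and 4 clusters (panels); hatched cells had no peak and blank cells have no member described. HOXC13 had the highest rank in every library, and HOXB1, HOXC12 and HOXD12 had no peak in any library.

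HOXB1, HOXC12 and HOXD12 had no peak within 1 kb in any library, which 14.9% of all models shared. HOXB1, which patterns the hindbrain (chromosome 12, 24784953 to 24786377), had its nearest peak at 4109, 4276, 4236 and 4230 bp in control 1, control 4, BRG1 1 and BRG1 4, the order used for every set of 4 values here. HOXC12, a posterior gene (chromosome 5, 19167174 to 19169684), had its nearest peak at 3597, 3602, 3483 and 2434 bp. HOXD12, of the distal limb (chromosome 15, 81900962 to 81902327), lay closest to the threshold, at 1671, 1713, 1760 and 1191 bp. Its nearest peaks belong to a region on the side of HOXD13 (81898522 to 81899771). That region was called in all 4 libraries, at percentiles of 83.5, 80.6, 79.3 and 74.3. HOXC12 and HOXD12 are the 2 members of paralogue group 12, so that group had no member with a peak within 1 kb. Groups 2, 3, 4, 5, 8, 9, 10 and 11 had such a peak in all 4 libraries at every member. These calls depend on the threshold: within 3 kb, 31 members had a peak in all 4 libraries, against 28 within 1 kb.

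HOXA7 and HOXB13 were called in 1 library each. HOXA7, of the thoracic axis (chromosome 18, 45417137 to 45419113), had a peak only in control 4, from 45417475 to 45417928, with a pileup of 21 tags at the summit and a percentile of 16.1. In the other libraries its nearest peak lay 3421 to 3467 bp away. HOXB13, known for roles in the tail and the prostate (chromosome 12, 24948307 to 24950661), had a peak only in BRG1 1, from 24950584 to 24950828, with a pileup of 23 and a percentile of 21.2. In the other libraries its nearest peak lay 1527 bp (control 1), 1431 bp (control 4) and 1506 bp (BRG1 4) away, in a region called in all 4. These single calls ranked low in their lists, and in neither group did both libraries have them.

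HOXB6 and HOXD1 were called in 3 libraries, and each lacked a BRG1 library. The peak inside HOXB6 (chromosome 12, 24851652 to 24852283) had pileups of 29 in control 1, 21 in control 4 and 37 in BRG1 4, at percentiles of 20.5, 4.31 and 43.7, and none was called in BRG1 1, whose nearest peak lay at 1289 bp. HOXD1, the member nearest the anterior end of its cluster (chromosome 15, 81987618 to 81990026), had best peaks at percentiles of 27.6, 26.0 and 12.4 in control 1, control 4 and BRG1 1. These values mix regions, since that of control 1 is of a region 554 bp outside the model. The region inside HOXD1 (81987667 to 81988308) had percentiles of 4.33, 26.0 and 12.4 in the same libraries. In BRG1 4 the peak nearest to HOXD1 lay 9016 bp away. Since 1 BRG1 library called each, neither separated the groups. Without BRG1 1, HOXD1 was called in both controls and not in the remaining BRG1 library, and without BRG1 4 the same held for HOXB6. Without control 1, HOXA7 was called in the remaining control and in no BRG1 library, and without BRG1 4, HOXB13 was called in the remaining BRG1 library and in no control. The members just inside the 1 kb threshold were HOXD3, with peaks 337, 672, 529 and 262 bp from the model, and HOXB2, with peaks at 0, 422, 293 and 93 bp.

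Among the anterior genes (paralogue numbers 1 to 3), 5 of 7 members described had a peak in all 4 libraries. HOXA2, known for its part in the hindbrain and the branchial arches, had a region inside its model. It (chromosome 18, 45470427 to 45470985) had pileups of 65, 58, 75 and 86 and percentiles of 57.6, 54.4, 67.0 and 73.3, so both BRG1 libraries lay above both controls. HOXB2, its paralogue, had percentiles of 75.8, 71.8, 69.6 and 60.1 at a region that ended 93 bp outside the model (chromosome 12, 24795931 to 24796693), with both BRG1 libraries below. The members of paralogue group 2 thus had opposite orders of the groups. Such orders also occurred widely over the genome, as given with the shared regions.

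HOXA3, of the neck, thymus and parathyroid, has the longest HOX model in the table at 46262 bp, and it spans HOXA4, HOXA5 and HOXA6 (chromosome 18, 45421542 to 45467803). It held 8, 6, 7 and 6 peaks, of which the strongest also lies at HOXA5 and HOXA6. Farther inside the model, a region at 45457819 to 45458546 had pileups of 21 and 33 in the controls and 11 and 10 in the BRG1 libraries. Its percentiles were 33.4 and 54.5 against 2.74 and 4.16, and the groups did not overlap. This region also lies inside the protein-coding model LOC110257526. HOXB3, its paralogue, was open inside the model (chromosome 12, 24808842 to 24810343) at percentiles of 59.1, 61.1, 61.4 and 49.8. HOXD3 had only weak peaks, at percentiles of 15.8, 8.25, 21.3 and 37.8, all in a region outside the model on the side of HOXD1.

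Among the central genes (paralogue numbers 4 to 8), 11 of 13 members had a peak in all 4 libraries. The strongest stood where HOXA5, needed for the lung and the neck skeleton, meets HOXA6 (chromosome 18, 45429757 to 45430948). Its pileups were 178, 160, 140 and 161 and its percentiles 91.9, 90.5, 89.1 and 93.2, with the groups overlapping. This peak was the strongest of HOXA3, HOXA5 and HOXA6 alike, so these 3 members are not independent. In all, 14 members had windows that overlapped that of another member. HOXA4 had a region at the end that faces HOXA5, also inside HOXA3 (chromosome 18, 45442790 to 45443305), at percentiles of 62.4, 62.0, 52.2 and 48.7, with both BRG1 libraries below both controls.

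In HOXB, 3 of the 4 central genes of the table were called in all 4 libraries. HOXB7 and HOXB8 shared their strongest region in control 1, BRG1 1 and BRG1 4 (chromosome 12, 24864008 to 24865155), with pileups of 73, 59, 65 and 93 tags. HOXB8, known from microglia and the spinal cord, had best percentiles of 71.1, 65.1, 69.2 and 82.6, of which the lowest was the highest such value of any HOXB member. HOXB5 had a region inside its model (chromosome 12, 24847543 to 24848452) with pileups of 68, 58, 59 and 30, where BRG1 4 was lowest. A long non-coding RNA gene, LOC102166259, overlaps HOXB5 and HOXB6 there, and its own strongest region, 5119 bp outside HOXB5 (24838765 to 24840105), ranked at 84.6, 86.2, 85.1 and 86.3.

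The central HOXC genes, which act in the thorax, all had a peak in all 4 libraries. HOXC6 had percentiles of 60.3, 61.2, 57.0 and 52.6 (chromosome 5, 19230605 to 19231576), HOXC8 of 43.1, 38.5, 38.4 and 29.4 (19221782 to 19222709), and HOXC5 of 27.5, 16.4, 12.4 and 17.3 (19245385 to 19246432). In HOXC8 and HOXC6 both BRG1 libraries ranked below both controls, and in HOXC5 the groups overlapped. HOXC4 was open at the end that faces away from HOXC5 but over 1 kb inside the model (19265916 to 19266868), at percentiles of 50.9, 30.7, 43.3 and 55.1. HOXD8, the only central HOXD member of the table, had percentiles of 64.5, 70.4, 70.7 and 45.3 at a region of 1422 bp (chromosome 15, 81930635 to 81932056), the widest shared region of that cluster.

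Among the posterior genes (paralogue numbers 9 to 13), 12 of 15 members had a peak in all 4 libraries, and the highest rank of all members was found here. HOXC13, which acts in hair follicles and nails, lies at the posterior end of its cluster (chromosome 5, 19151096 to 19159008). The region across its outer end (19150163 to 19151206) had pileups of 263, 248, 252 and 168 tags and authors' folds over background of 17.5, 17.4, 19.8 and 14.9. Its percentiles were 96.5, 96.1, 97.3 and 94.1, the highest of any HOX member in every library, and the groups overlapped. A second region inside HOXC13 (19151956 to 19152269) was called in 3 libraries with pileups of 76, 75 and 49, and was not called in BRG1 4.

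HOXA13 and HOXD13, which shape the digits and the genital tract, were also open at their outer or inner ends. HOXD13 was strongest 557 bp outside its model, on the side of HOXD12 (chromosome 15, 81898522 to 81899771), with pileups of 103, 87, 81 and 63 and percentiles of 83.5, 80.6, 79.3 and 74.3. HOXA13 was strongest across its outer end (chromosome 18, 45372071 to 45373580), with pileups of 49, 44, 42 and 30 and percentiles of 60.6, 57.0, 56.6 and 40.7. At both, the BRG1 libraries ranked below both controls. Of paralogue group 13 only HOXB13 lacked a peak in all 4 libraries.

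Members of paralogue groups 9 and 10 were called in all 4 libraries in HOXA, HOXC and HOXD. HOXD9 and HOXD10, of the limb, have overlapping models and shared their strongest region (chromosome 15, 81917220 to 81918202), with pileups of 81, 79, 88 and 77 and percentiles of 80.3, 79.6, 83.3 and 82.2, so both BRG1 libraries ranked it above both controls. HOXC10, of the lumbar axis and hindlimb, had pileups of 70, 84, 74 and 42 at percentiles of 77.4, 82.7, 80.4 and 67.8 (chromosome 5, 19197497 to 19198277). HOXA10, known from the uterus and the lumbar spine, had percentiles of 44.9, 58.1, 50.8 and 56.5, and HOXA9, known from blood formation, of 35.5, 41.5, 20.9 and 43.4. The HOXA9 values mix regions, since control 4 and BRG1 4 ranked best 272 bp outside the model (chromosome 18, 45403818 to 45404322). The region inside HOXA9 (45408164 to 45408655) had percentiles of 35.5, 40.9, 20.9 and 8.04, with both BRG1 libraries below both controls. HOXC9 had percentiles of 38.1, 24.4, 29.1 and 69.9, with BRG1 4 far above BRG1 1 and both controls.

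The paralogues of group 11 shape the forearm and the kidney. HOXA11 had percentiles of 55.0, 47.1, 34.5 and 56.1, HOXD11 of 24.5, 31.5, 13.4 and 48.0, and HOXC11 of 11.7, 24.4, 26.3 and 6.78. The HOXD11 values are of a region 825 bp outside its model (chromosome 15, 81905328 to 81905829). A region inside HOXD11 (81908150 to 81908566) had percentiles of 12.4, 11.3, 9.40 and 3.92, with both BRG1 libraries below both controls. HOXC11 was called in all 4 libraries through different weak peaks: 1 region (chromosome 5, 19184949 to 19185320) was called in control 4 and BRG1 1 and another (19186000 to 19186420) in all but control 4. No region inside HOXC11 was common to all 4 libraries.

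More members were open at the end that faces group 13 than at the end that faces group 1. HOX genes of a cluster are known to be transcribed in the same direction, from the side of group 13 toward the side of group 1, so the end facing group 13 is where the start is expected. The table has no strand, and this comparison was added after the values were seen. A peak within 1 kb of the end facing group 13 was called in all 4 libraries at 19 of 35 members (54.3%), and at the end facing group 1 at 6 members (17.1%). Over all models, the lower-coordinate end had such a peak in 38.9% and the higher-coordinate end in 38.1%. That split is by coordinate and mixes the starts of genes with their other ends. It is therefore no background for the start side alone, and whether other genes show the same asymmetry was not tested. HOXA6, HOXA10, HOXB8 and HOXD13 were open at both ends, and HOXB2 and HOXD3 only at the end facing group 1. Either end was open in all 4 libraries at 21 of 35 members (60%), against 68.2% of all models. HOX models are short, with a median length of 4112 bp against 20650.5 bp for all models.

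The clusters differed in this measure. The end facing group 13 was open in all 4 libraries at 8 of 10 HOXA members, 6 of 9 HOXC members, 3 of 8 HOXD members and 2 of 8 HOXB members. By paralogue number it was open at 1 of 7 anterior members (HOXA2), 9 of 13 central members and 9 of 15 posterior members. There were 7 members with a peak in all 4 libraries but with neither end open in all 4: HOXA3, HOXB3, HOXB5, HOXC4, HOXC11, HOXD9 and HOXD10. Of these only HOXA3 had any peak at an end, in 1 library at each end. In all 7 the open sites lay inside the model.

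The whole clusters were then taken with 50 kb on both sides, 878.917 kb in all. Merged peaks gave 122 regions, of which 66 (54.1%) were called in all 4 libraries, against 61.8% of all regions of the genome. Another 15 were called in 3 libraries, 10 in 2 and 31 in 1. Regions called in all 4 libraries numbered 54 between the first and last members (11.3 per 100 kb) and 12 in the flanks (3 per 100 kb). Over 12147 bins of 200 kb the genome had a median of 2.5 such regions per 100 kb, with quartiles of 1 and 4.5, and the 4 windows had 7.51. Of the 66 regions, 30 overlapped a member model, 36 lay within 1 kb of a member and 30 lay farther away.

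**Figure D2:**
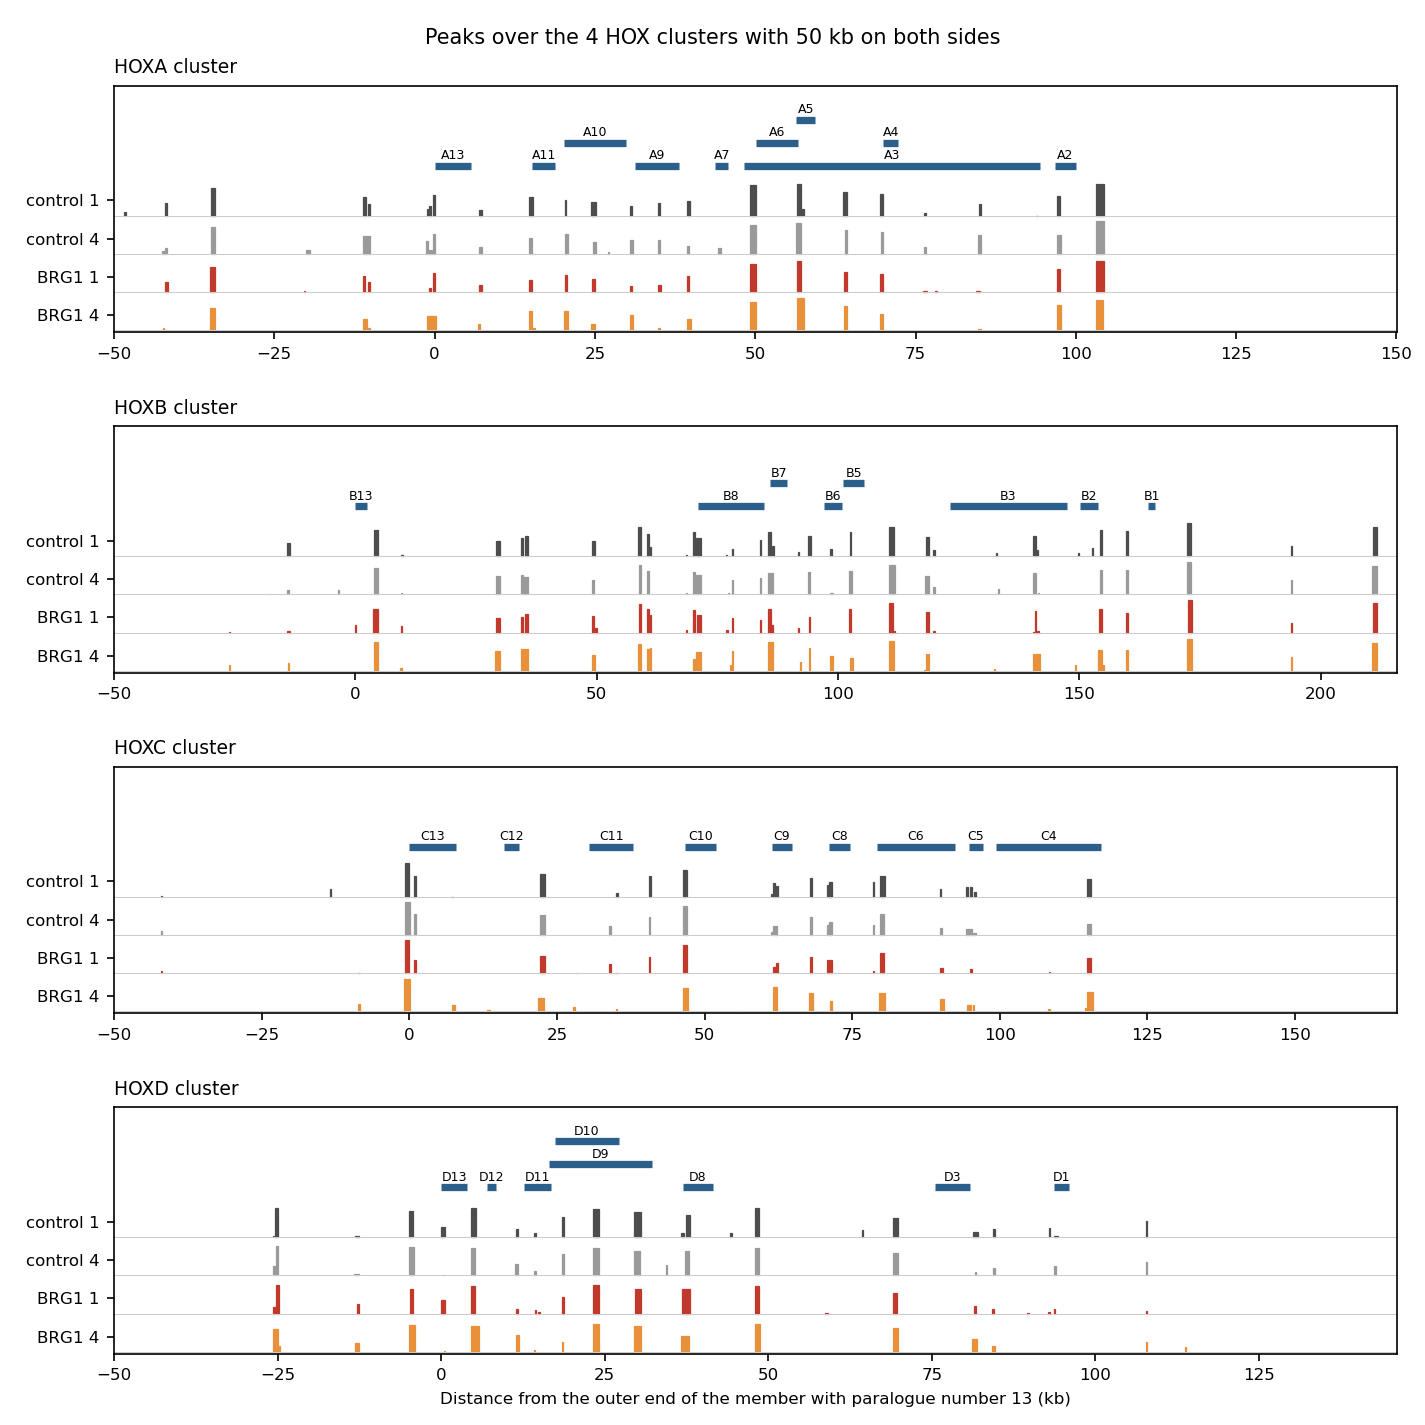
Each panel shows a HOX cluster with 50 kb on both sides, with distance in kb from the outer end of the group 13 member on the x axis, gene models as blue bars and peaks of the 4 libraries as coloured bars whose height is the percentile of −log10 p in the library's list (0 to 100 per row). Tall bars recur at the same places in all 4 libraries. Apart from the peaks at the outer end of HOXC13, the HOXC flanks hold only short bars.

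HOXA had 18 of 29 regions in all 4 libraries, HOXB 22 of 41, HOXC 10 of 27 and HOXD 16 of 25. Per 100 kb between first and last members this came to 13.999 in HOXA, 12.5 in HOXD, 10.9 in HOXB and 8.53 in HOXC. HOXC was the sparsest, and it had no region called in all 4 libraries in its flanks, against 4 in those of each other cluster. A region that touched the outermost member was not counted in the flanks. The strong region at HOXC13 and that at HOXA13 were thus left out of them, although both lie mostly outside the models. The widest such regions measured 1510 bp at HOXA13, 1504 bp between HOXB8 and HOXB13 (chromosome 12, 24914808 to 24916311), 1166 bp between HOXC12 and HOXC11 (chromosome 5, 19172925 to 19174090) and 1422 bp at HOXD8. These widths are of merged peaks. In the HOXA13 region only BRG1 4 had a single peak, and the libraries covered 830, 1022, 655 and 1506 bp. In the HOXB region the same held, with 1152, 1111, 1035 and 1461 bp covered. The strongest region by its lowest percentile outside the members lay 6550 bp beyond HOXB1 (chromosome 12, 24777403 to 24778403), with pileups of 189, 178, 146 and 133 and percentiles of 95.1, 94.8, 93.3 and 93.6. HOXB1 itself had no peak within 1 kb. By its lowest percentile the region beyond HOXB1 was the strongest of the HOXB window, and it overlapped no gene model. Only this region and that at HOXC13 reached the percentile of 90 in all 4 libraries, 2 of 66 (3.03%) against 9.64% of all shared regions.

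Between its first and last members, each cluster also had long stretches with no peak in any library. In HOXA the longest of these measured 8174 bp and lay inside HOXA3 (chromosome 18, 45458938 to 45467111). In HOXB it measured 19155 bp and lay between HOXB8 and HOXB13 (chromosome 12, 24921700 to 24940854), with no member in it. In HOXC it measured 12276 bp and ran from HOXC5 into HOXC4 (chromosome 5, 19247049 to 19259324). In HOXD it measured 11248 bp (chromosome 15, 81963907 to 81975154) and held the whole model of HOXD3. Between first and last members, the longest stretch without a region common to all 4 libraries was 23406 bp in HOXC (chromosome 5, 19174091 to 19197496) and held HOXC11. The gaps thus lay on the anterior side in HOXA and HOXD, and around HOXC11 and HOXC4 in HOXC.

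Peak number and length over the windows did not separate the groups. The windows held 104, 97, 101 and 91 peaks, and the mean was 96 ± 7.07 in the BRG1 and 100.5 ± 4.95 in the control libraries (SD, n = 2, exact permutation p = 0.667). The ratio of 0.955 compares with 0.877 for all peaks of the lists. It turned to 1.09 with lists of equal length and to 1.00 without BRG1 4. Peaks covered 47391, 47182, 45799 and 52336 bp, with a ratio of means of 1.04 (exact permutation p = 1, n = 2 each) against 0.989 over the genome, and the ratio turned to 0.969 without BRG1 4. BRG1 4 was the library with the fewest and the widest peaks, in the windows (median width 480 bp, against 388, 408 and 369 bp) as in its whole list.

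**Figure D3:**
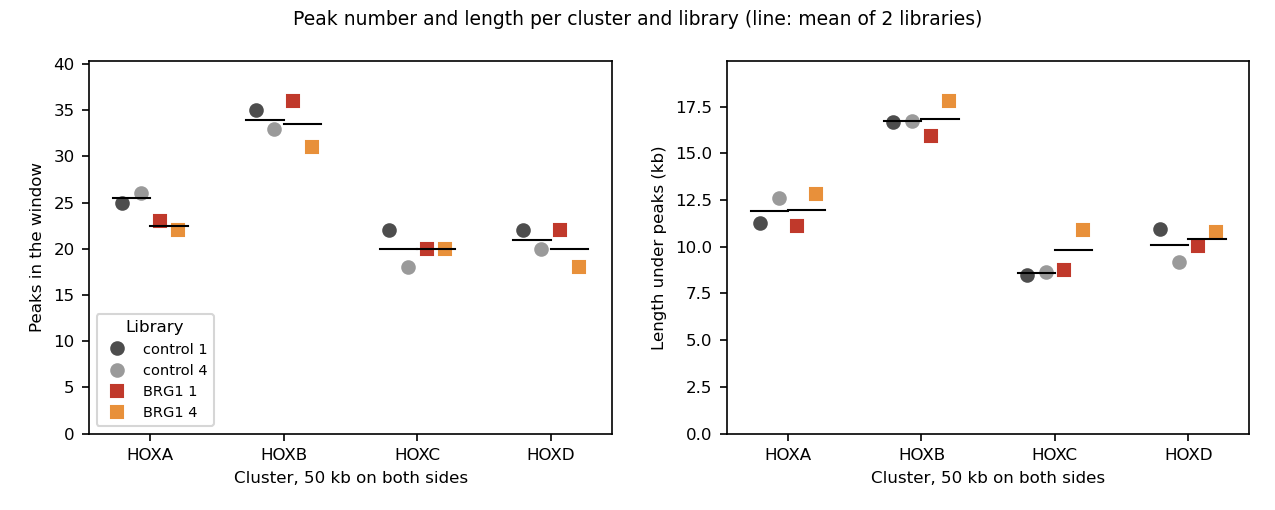
Left, number of peaks, and right, length under peaks in kb, in each cluster window (x axis) for the 2 control libraries (circles) and the 2 BRG1 libraries (squares), with lines at the group means of n = 2. The BRG1 libraries lie below the controls in HOXA peak number (23 and 22 against 25 and 26), and in HOXC length BRG1 4 stands apart at 10914 bp.

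By cluster, the groups were apart in 2 of 8 comparisons. With 2 libraries against 2, random labels separate the groups fully at a rate of up to 0.333 per comparison, so this count shows no group difference. HOXA held 25 and 26 peaks in the controls and 23 and 22 in the BRG1 libraries (ratio 0.882, exact permutation p = 0.333, n = 2 each), close to the ratio of all peaks. HOXC peaks covered 8500 and 8635 bp in the controls and 8743 and 10914 bp in the BRG1 libraries (ratio 1.15, exact permutation p = 0.333, n = 2 each). Most of that gap came from BRG1 4, since BRG1 1 exceeded the higher control by little. In HOXB and HOXD both measures overlapped between the groups.

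Few regions were private to a group. The BRG1-only regions, called in both BRG1 libraries and neither control, numbered 3 of 122 (2.46%, against 0.741% of all regions), and control-only regions 1 (0.820%, against 4.41%). Other pairs of libraries shared 1 or 2 private regions each: control 1 with BRG1 1 had 2, control 1 with BRG1 4 had 1, control 4 with BRG1 1 had 1 and control 4 with BRG1 4 had 2. Single libraries had 7, 7, 7 and 10 regions of their own. For these mixed pairs and single libraries the shares over all regions were not taken, so their counts are no background for the BRG1-only count. The BRG1-only count was 14 without BRG1 1, 11 without BRG1 4 and 5 without control 1. The control-only count was 9 without control 1, 9 without control 4, 10 without BRG1 1 and 5 without BRG1 4. In these counts 1 library is enough for its group, and the shares over all regions were not taken with a library left out.

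The 3 BRG1-only regions were weak. The region inside HOXC4 (chromosome 5, 19259325 to 19259635) had pileups of 10 in both BRG1 libraries and percentiles of 3.73 and 5.57. The region beyond HOXC13, 8294 bp from it (19142383 to 19142802), had pileups of 9 and 15 and percentiles of 0.979 and 22.5. The region 25936 bp beyond HOXB13 (chromosome 12, 24976597 to 24976825) had pileups of 10 and 14 and percentiles of 2.26 and 17.1. All ranked at a percentile of 22.5 or lower. The control-only region crossed the end of HOXC9 that faces HOXC10 (chromosome 5, 19212327 to 19212590), with pileups of 17 and 16 and percentiles of 7.47 and 7.52. Beside it, inside HOXC9, lay a region called in all 4 libraries (19212733 to 19213452), so HOXC9 was open in both groups.

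Of the 15 regions called in 3 libraries, 10 lacked BRG1 4 (66.7%), against 56.2% of such regions over the genome. BRG1 1 was lacking in 3 (24% over the genome), control 4 in 2 (10.6%) and control 1 in none (9.07%). The regions that lacked BRG1 4 included those in HOXC13, HOXD1, HOXA3 and HOXB8. One between HOXC11 and HOXC10 (chromosome 5, 19191628 to 19191956) had percentiles of 58.9, 52.9 and 45.3 where it was called. The highest percentile of any region not common to all 4 libraries lay between HOXB8 and HOXB13 (chromosome 12, 24889346 to 24889619). That region lacked control 4 and had percentiles of 27.6, 50.9 and 65.8 in control 1, BRG1 1 and BRG1 4. Regions not common to all 4 libraries were otherwise mostly weak, with a median best percentile of 12.3.

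In the 66 shared regions the strengths were compared by rank within each list. Lists differ in length, so a difference of ranks shows no change by itself. Both BRG1 libraries ranked above both controls in 7 regions (10.6%, against 9.03% of all shared regions) and below both in 21 (31.8%, against 34%). These shares were near those of the genome. With lists of equal length the counts were 12 and 11, so the excess of lower ranks in these regions was not kept. Without BRG1 1 they were 26 and 33, without BRG1 4 17 and 44, without control 1 13 and 27, and without control 4 12 and 30. The shares over all shared regions were not taken at these settings, so these counts cannot be told apart from a shift over the whole genome.

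**Figure D4:**
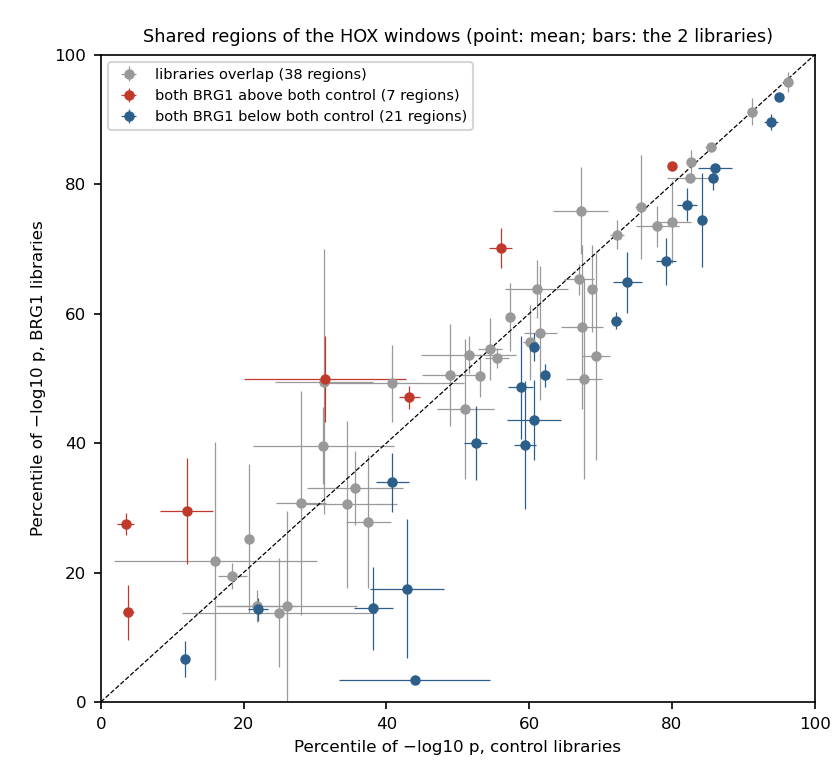
Each point is 1 of the 66 regions of the HOX windows called in all 4 libraries, with the mean percentile of −log10 p of the 2 control libraries on the x axis and of the 2 BRG1 libraries on the y axis; bars span the 2 libraries and the dashed line marks equal ranks. Blue points (21 regions, both BRG1 libraries below) and red points (7, both above) mostly lie near the line, and the region inside HOXA3 lies lowest beneath it.

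The region at EVX2, the homeobox gene next to HOXD13, was among those above (chromosome 15, 81880712 to 81881406). It had pileups of 13, 14, 22 and 19 and percentiles of 2.29, 4.64, 29.2 and 25.8. EVX1, next to HOXA13, had best percentiles of 35.9, 16.2, 29.6 and 7.19, where the groups overlapped. These values mix regions, since that of BRG1 4 is of a region called only in control 4 and BRG1 4 (chromosome 18, 45330866 to 45331127). In the region of the other values (45331216 to 45331743), called in all 4 libraries, BRG1 4 had a percentile of 0.228. A weak region 7000 bp from HOXB13 (chromosome 12, 24940855 to 24941307) had percentiles of 3.09, 4.60, 18.0 and 9.65. The regions at HOXA2 and at HOXD9 and HOXD10, of higher rank, were also among the 7 above.

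Shared HOX regions had middling ranks. The median of their mean percentile was 54.4, against 60.6 over all shared regions, and their median width was 772 bp against 708 bp. The background that the authors' caller set at the summits was higher in the windows, with medians of 4.46, 4.06, 3.36 and 4.00 tags against 2.82, 2.70, 2.52 and 2.90 over all peaks. The summit pileups were alike, with medians of 33, 32, 28 and 29 tags in the windows and 32, 32, 31 and 28 over all peaks.

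Of the 5 microRNA genes of the windows, 1 had a peak within 1 kb in all 4 libraries. This was MIR615, inside HOXC5, at best percentiles of 27.5, 16.4, 12.4 and 17.3. MIR10A, between HOXB5 and HOXB3, lay 865 bp from a region called in all 4 libraries, but only BRG1 4 had a peak of its own within 1 kb, at a percentile of 3.85. MIR10B, between HOXD8 and HOXD3, had a peak within 1 kb only in BRG1 1, at a percentile of 1.71. MIR196A-1 and MIR196A-2 lay 2951 and 2471 bp from the nearest region and had none.

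Genes that work with or act on the HOX genes were mostly open, as were 80.8% of all models. The HOX cofactors PBX, MEIS and PKNOX, which bind DNA together with HOX proteins, had a peak within 1 kb in all 4 libraries at 9 of 9 members. Polycomb and Trithorax genes, such as EZH2 and KMT2A, had 14 of 14. Of the retinoid and caudal regulators, which set HOX expression in the embryo, 6 of 9 had one. CDX4 had none in any library, CDX2 had a peak only in BRG1 1 and CYP26A1, an enzyme that breaks down retinoic acid, lacked one in BRG1 4. The neighbours of the clusters had 12 of 12.

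Other homeobox families gave the comparison with genes of the same class. DLX genes had a peak in all 4 libraries at 6 of 6 members, IRX genes at 6 of 6, LHX genes at 7 of 7 and NKX genes at 6 of 8, against 28 of 35 HOX genes. The exceptions were NKX2-1, called in control 1 and BRG1 1, and NKX6-2, called in all but BRG1 4. No gene of any of these lists was called in both libraries of 1 group only. The difference between families was not tested.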

How the data were processed

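For every library the authors deposited a narrowPeak list with positions on Sscrofa11.1. The submitters' processing notes list MACS2, SAMtools, Bowtie, BWA and FastQC without versions, roles or order. In each list the deposited fold is a ratio, by the authors' caller, of summit pileup to local background. The −log10 p-value and −log10 q-value are as deposited, set within each library by that caller, and the deposited score equals 10 times the −log10 q, cut to a whole number. Whether reads were shifted for the Tn5 cut, how duplicates were handled and how the caller was set is not given in the sources used here, and any of these steps can change peak number and width.

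From each fold and p-value a whole pileup and its background were solved, for peaks with a −log10 p under 290. At least 99.9989% were whole within a relative tolerance of 0.0001. Lowest backgrounds were 1.91, 1.79, 1.55 and 1.77 tags (control 1, control 4, BRG1 1, BRG1 4), and their number limits the precision. A peak belonged to a gene model within 1 kb. Peaks of all libraries overlapping by at least 1 bp were merged into regions. Tests between the group means were exact permutation tests, two-sided. Counts of members were set beside the same share over all 19550 models or all regions, with no test. The scripts were tested on simulated data (Python 3.11.15, pandas 2.3.3, numpy 2.4.6, scipy 1.17.1, matplotlib 3.10.9).

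Members and lists were chosen with earlier results of these data known. The naming rule took, per cluster, the member and region with the highest lowest percentile, the widest shared region and the longest gap, and every member or region with calls missing by library or private to a group. Other regions, long non-coding RNA and microRNA genes were named after their values were seen. Of 38 names given for the clusters, 35 matched the table. Some planned items are not reported here. RARG, CYP26B1, LHX3 and KRT14 did not match. Library numbers 1 and 4 recur in both groups, but deviations of same-numbered libraries correlated at −0.0379 over shared regions, and 2 pairs do not show pairing. At most 0.202% of intervals of any 2 libraries were identical. Strand, exons and UTRs are not in the gene table used here, and no sequence was used.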

Additional observations from a re-analysis of the deposited data

How the results depend on the processing

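Of 98 alternative values, 67 kept their direction or stayed close, 27 moved and 4 turned. With lists of equal length the member difference of −1 turned to 0.5 and the peak ratio of 0.955 to 1.09. Without BRG1 4 the peak ratio turned to 1.00 and the length ratio of 1.04 to 0.969. BRG1-only regions numbered 3, and 1 at a −log10 q of at least 5, 1 with no flank and 5 where a library had to cover 50% of a region. Control-only regions numbered 1, and 3 at that q, 2 with lists of equal length, 2 with flanks of 100 kb and 2 at the 50% cover. Regions with both BRG1 ranks above numbered 7, and 4 at that q and 12 with equal lengths. Those below numbered 21, and 11 with equal lengths. With each library left out in turn, values ran from −1.5 to −0.5 for the member difference, 28 to 29 members in every library kept, 0 to 1 BRG1-only and 0 to 1 control-only members, 0.905 to 1.00 for the peak ratio, 0.969 to 1.11 for the length ratio, 66 to 80 shared regions, 3 to 14 BRG1-only and 5 to 10 control-only regions, and 12 to 26 regions above and 27 to 44 below. Fewer libraries then had to share a call. Shares over all models and all regions were taken only at the main setting. The causes were otherwise not tested.

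With the library number as a replicate block the values were −1, 0.955 and 1.04 (two-sided exact sign-flip test, p = 1, 0.5 and 1, where 0.5 is the lowest it allows), and no call changed. Promoter sequences and motifs were planned and not run, because no sequence was used here. Absolute depth is unknown, and with 2 libraries per group neither exact test used here can pass 0.05.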
